A study of Mus musculus with 18 samples.

Results

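Ltf, Camp, Ngp, Lcn2, Chil3, Cd177, Fcnb, Pglyrp1, Mmp8 and Wfdc21 encode proteins that neutrophils store in their specific granules or set at the cell surface while they are still immature. These 10 genes were chosen by name from 55385 genes of the count table, and all 10 passed the filter on low counts that left 18634 genes to test. They were measured by sequencing of poly(A) RNA from whole spleens of 18 mice, 6 of each of 3 genotypes with 3 males and 3 females each. Dp16_2xIFNRs mice carry the same extra segment of chromosome 16 as Dp16 mice, with the dosage of the interferon receptor genes returned to normal. Dp16 mice carry an extra copy of a segment of mouse chromosome 16 whose genes correspond to a large part of human chromosome 21. WT mice are wild-type C57BL/6J, and the labels name no strain for the other genotypes. No group received a treatment, the series is titled as adult tissue, and age is labelled with values between 17.1 and 18.0 whose tag speaks of days after conception, so the unit of age is not interpreted here.

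Neutrophils make their granules in waves as they mature. Promyelocytes fill azurophil granules with proteases and myeloperoxidase, myelocytes and metamyelocytes fill specific granules with the products of the genes described here, later cells fill gelatinase granules, and circulating neutrophils have largely stopped making the early transcripts. The transcription factor C/EBP epsilon, encoded by Cebpe, is required for specific granules, and the mouse spleen can make granulocytes beside its lymphocytes and red pulp.

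The specific granule genes lie on 5 autosomes and none is on chromosome 16. Camp, Ngp, Ltf and Mmp8 are on chromosome 9, Lcn2 and Fcnb on chromosome 2, Cd177 and Pglyrp1 on chromosome 7, Chil3 on chromosome 3 and Wfdc21 on chromosome 11. RefSeq promoter sequences of GRCm38.p6 were found for 9 of 10 members, with no entry for Wfdc21. The 250 bases before the RefSeq start of 4 members are shown. Camp, Ngp and Ltf were picked as neighbours on chromosome 9. Lcn2 was picked because it followed the mean of the members, itself included, most closely across libraries. Capitals mark each match to the C/EBP pattern TTNNGNAA on either strand, which reads TTNCNNAA on the other one.
Ltf: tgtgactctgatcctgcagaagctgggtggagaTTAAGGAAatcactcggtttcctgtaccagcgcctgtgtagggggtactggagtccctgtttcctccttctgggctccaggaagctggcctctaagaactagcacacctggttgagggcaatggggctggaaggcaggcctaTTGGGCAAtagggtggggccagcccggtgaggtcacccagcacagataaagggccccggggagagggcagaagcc
Ngp: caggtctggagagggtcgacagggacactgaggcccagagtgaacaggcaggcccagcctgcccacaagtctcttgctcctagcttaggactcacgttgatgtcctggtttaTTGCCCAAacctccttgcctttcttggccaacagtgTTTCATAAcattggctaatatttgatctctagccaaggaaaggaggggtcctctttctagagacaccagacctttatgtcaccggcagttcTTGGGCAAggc
Camp: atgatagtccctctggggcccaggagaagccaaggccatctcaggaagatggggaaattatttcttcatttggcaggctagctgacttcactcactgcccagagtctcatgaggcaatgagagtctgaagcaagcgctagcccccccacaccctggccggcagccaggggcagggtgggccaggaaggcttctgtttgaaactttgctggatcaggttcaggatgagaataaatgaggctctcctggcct
Lcn2: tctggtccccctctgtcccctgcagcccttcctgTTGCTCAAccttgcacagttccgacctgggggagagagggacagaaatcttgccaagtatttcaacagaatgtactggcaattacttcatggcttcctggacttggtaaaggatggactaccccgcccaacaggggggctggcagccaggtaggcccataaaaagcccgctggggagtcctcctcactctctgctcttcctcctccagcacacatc
The windows are chr9:111019042-111019291, plus strand, chr9:110419558-110419807, plus strand, chr9:109849457-109849706, minus strand and chr2:32387740-32387989, minus strand, each written 5′ to 3′ on the strand of its gene. Positions are counted from the RefSeq start, which for these 4 genes lies inside the GENCODE gene span given with each of them, so the windows of Ltf, Ngp and Camp run partly into those spans and that of Lcn2 lies wholly within its span. Ltf has 2 matches, the nearer at bases -75 to -68 from the RefSeq start, Ngp has 3, the nearest at -11 to -4, Lcn2 has 1 at -216 to -209, and Camp has none in this window. Across members 7 of 9 windows hold the pattern, against 36.8% of all 32851 promoter windows of the same length. The PU.1 pattern GAGGAA, searched on both strands, is in 5 of 9 windows and in 23.3% of all, and TATAAA is in 1 of 9, that of Cd177, and in 12.4% of all. These matches describe letters in the reference and are no evidence of binding in these spleens.

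Library totals ran from 33998427 to 53021480 counts, and the lowest count of any member in any library was 97, for Wfdc21, so counting error was small beside the spread between animals. No other gene of the annotation overlaps a member on either strand. The 4 receptor genes largely followed the labels. Ifnar1, Ifnar2, Ifngr2 and Il10rb were called higher in Dp16 than in WT (log2 fold changes of 0.30, 0.68, 0.30 and 0.46) and called lower in Dp16_2xIFNRs than in Dp16 (-0.46, -0.59, -0.57 and -0.54). In Dp16_2xIFNRs against WT they were at -0.17, 0.09, -0.27 and -0.07. Of these only Ifngr2 was called, as lower than in WT (edgeR adjusted p = 0.0147). Between 0.691% and 5.51% of counts fell on Gm42418, which lies over a ribosomal RNA repeat, and the share exceeded 4% in 4 libraries, 3 from males and 1 from a female. The labels number the samples of each genotype, and do not say whether animals were littermates. Some libraries of different genotypes share a code in their descriptions, whose meaning is not stated.

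All 10 specific granule genes were higher in both genotypes with the extra segment than in WT. Together they took 0.204% to 0.354% of counts in Dp16_2xIFNRs spleens and 0.180% to 0.628% in Dp16 spleens, against 0.0270% to 0.129% in WT spleens. In Dp16 against WT 10 of 10 were called higher, where 16.6% of all tested genes were called higher and 29.8% in either direction, and in Dp16_2xIFNRs against WT 10 of 10 were called higher, where 17.3% were called higher and 31.4% in either direction. The median log2 fold change of the members was 2.53 in Dp16 and 2.38 in Dp16_2xIFNRs, against -0.01 for all genes in each comparison. Both comparisons use the same WT libraries, so their values are given side by side and not as separate evidence. In bulk tissue more cells of a type and more RNA per cell cannot be told apart.

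Calls are from edgeR's quasi-likelihood test with genotype and sex as terms, at a Benjamini-Hochberg adjusted p below 0.05 over all tested genes. CPM is a gene's count scaled to a fixed library total, and folds come from the fitted model, so they differ from the ratio of mean CPM values. With limma-trend on RPKM the median of all genes moved to -0.13 in Dp16 and -0.12 in Dp16_2xIFNRs against WT, and with that shift the calls over all genes were 2220 higher and 3924 lower in Dp16, against 3091 and 2462 in the edgeR fit. All 10 members were called higher in both under that setting too.

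Ltf and Lcn2 withhold iron from microbes. Ltf encodes lactoferrin, which binds iron itself, and lies at chromosome 9 from 111019271 to 111042767 (GRCm38, plus strand). Its lowest, median and highest values were 279, 433 and 607 CPM in Dp16_2xIFNRs spleens and 282, 473 and 984 CPM in Dp16 spleens, against 45.5, 71.3 and 241 CPM in WT spleens. Every spleen with the extra segment was above the highest WT spleen, a female. The fold was 5.59 (95% interval 3.91 to 7.98; log2 2.48 ± 0.26 SE, adjusted p = 1.93e-05) in Dp16 and 5.03 (3.52 to 7.19; 2.33 ± 0.26, adjusted p = 3.23e-05) in Dp16_2xIFNRs.

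Lcn2 encodes lipocalin 2, which binds bacterial siderophores, and lies on the minus strand of chromosome 2 from 32384633 to 32388252. Lowest, median and highest were 205, 290 and 395 CPM in Dp16_2xIFNRs and 191, 326 and 645 CPM in Dp16, against 24.1, 41.6 and 126 CPM in WT. Neither genotype overlapped WT. Lcn2 rose 6.76-fold in Dp16 (95% interval 4.89 to 9.34, adjusted p = 2.76e-06) and 6.05-fold in Dp16_2xIFNRs (4.38 to 8.36, adjusted p = 5.31e-06).

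Camp and Ngp belong to the cathelicidin family. Camp, at chromosome 9 from 109847379 to 109849617 on the minus strand, encodes the precursor of the mouse antimicrobial peptide CRAMP. It had the largest log2 fold change among the members in both comparisons. The lowest, median and highest CPM were 229, 377 and 463 in Dp16_2xIFNRs and 229, 389 and 806 in Dp16, against 29.4, 51.9 and 141 in WT, with no overlap of either genotype with WT. The rise was 7.11-fold in Dp16 (95% interval 5.01 to 10.1; log2 2.83 ± 0.26 SE, adjusted p = 4.56e-06) and 6.57-fold in Dp16_2xIFNRs (4.63 to 9.32; 2.72 ± 0.26, adjusted p = 7.35e-06).

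Ngp, neutrophilic granule protein, lies between Camp and Ltf on chromosome 9, from 110419747 to 110423012 on the plus strand. Per length it was the most abundant member in each genotype, with 1026 ± 267 RPKM in Dp16_2xIFNRs, 1234 ± 621 in Dp16 and 211 ± 153 in WT (SD, n = 6 each). Its counts gave 876, 1241 and 1623 CPM as lowest, median and highest in Dp16_2xIFNRs and 796, 1405 and 2872 CPM in Dp16, against 96.0, 182 and 556 CPM in WT. The groups stood apart from WT, and Ngp rose 6.88-fold in Dp16 (adjusted p = 3.45e-06) and 6.08-fold in Dp16_2xIFNRs (adjusted p = 7.23e-06).

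Fcnb and Pglyrp1 encode secreted pattern recognition proteins, and Pglyrp1 moved least of the members. Fcnb, chromosome 2 from 28076378 to 28084885 on the minus strand, encodes ficolin B, a lectin of the complement system. Its lowest, median and highest were 22.4, 31.1 and 38.6 CPM in Dp16_2xIFNRs and 18.9, 30.5 and 70.1 CPM in Dp16, against 2.87, 5.22 and 14.9 CPM in WT. Neither genotype overlapped WT, with a 5.78-fold rise in Dp16 (adjusted p = 2.09e-06) and a 5.37-fold rise in Dp16_2xIFNRs (adjusted p = 3.86e-06).

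Pglyrp1, chromosome 7 from 18871331 to 18890459 on the plus strand, encodes a peptidoglycan binding protein. It had 59.1, 83.3 and 107 CPM as lowest, median and highest in Dp16_2xIFNRs and 62.4, 92.1 and 134 CPM in Dp16, against 32.2, 36.7 and 47.1 CPM in WT. The WT spleens were closer together here than for any other member, with a coefficient of variation of 15.4%, against 44.4% to 74.0% for the other 9 members in WT. The rise was 2.55-fold in Dp16 (95% interval 2.20 to 2.95; log2 1.35 ± 0.11 SE, adjusted p = 7.38e-08) and 2.39-fold in Dp16_2xIFNRs (2.06 to 2.76; 1.26 ± 0.11, adjusted p = 1.92e-07). By log2 fold change in Dp16 against WT Pglyrp1 ranked 595 of 18634 genes, against ranks 32 to 97 for the other 9.

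Mmp8 encodes neutrophil collagenase, a secreted protease, and lies apart from the other chromosome 9 members at 7558456 to 7568485 on the plus strand. Its lowest, median and highest were 23.9, 30.7 and 35.4 CPM in Dp16_2xIFNRs and 13.5, 34.4 and 78.6 CPM in Dp16, against 4.39, 7.28 and 13.7 CPM in WT. One Dp16 male was just below the highest WT spleen, while all Dp16_2xIFNRs spleens were above it. Mmp8 rose 4.95-fold in Dp16 (95% interval 3.27 to 7.52, adjusted p = 8.36e-05) and 4.08-fold in Dp16_2xIFNRs (2.70 to 6.17, adjusted p = 0.000179).

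Wfdc21, chromosome 11 from 83746940 to 83752642 on the plus strand, encodes a small protein with the WAP domain found in some protease inhibitors. It had 16.7, 25.5 and 33.1 CPM as lowest, median and highest in Dp16_2xIFNRs and 17.3, 29.5 and 53.2 CPM in Dp16, against 2.51, 4.51 and 10.1 CPM in WT. No spleen of either genotype reached down to the WT range. With log2 fold changes of 2.78 ± 0.19 SE in Dp16 (6.87-fold, adjusted p = 2.3e-08) and 2.46 ± 0.19 in Dp16_2xIFNRs (5.52-fold, adjusted p = 9.03e-08), Wfdc21 had the smallest adjusted p of the members in both comparisons.

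Chil3 encodes Ym1, a chitinase-like protein made by immature neutrophils and some macrophages, and lies at chromosome 3 from 106147554 to 106167564 on the minus strand. It has a near copy, Chil4, which averaged 0.0209 CPM over all libraries and was not tested, so few reads were assigned to that copy. Whether reads that match both copies were left out of the Chil3 count was not tested. Chil3 had 113, 159 and 201 CPM as lowest, median and highest in Dp16_2xIFNRs and 93.0, 168 and 427 CPM in Dp16, against 20.2, 29.9 and 98.8 CPM in WT. The lowest Dp16 spleen was below the highest WT spleen, and Dp16_2xIFNRs did not overlap WT. The rise was 4.73-fold in Dp16 (95% interval 3.23 to 6.93, adjusted p = 6.2e-05) and 4.08-fold in Dp16_2xIFNRs (2.79 to 5.97, adjusted p = 0.000116).

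Cd177 encodes a surface glycoprotein of neutrophils, which in human cells carries proteinase 3 and binds PECAM1. The gene lies on the minus strand of chromosome 7 from 24743983 to 24760311. Lowest, median and highest values were 68.6, 84.6 and 124 CPM in Dp16_2xIFNRs and 64.4, 106 and 208 CPM in Dp16, against 12.0, 16.2 and 43.3 CPM in WT, with no overlap with WT. Cd177 rose 5.79-fold in Dp16 (adjusted p = 3.94e-07) and 4.87-fold in Dp16_2xIFNRs (adjusted p = 1.49e-06).

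**Figure D1:**
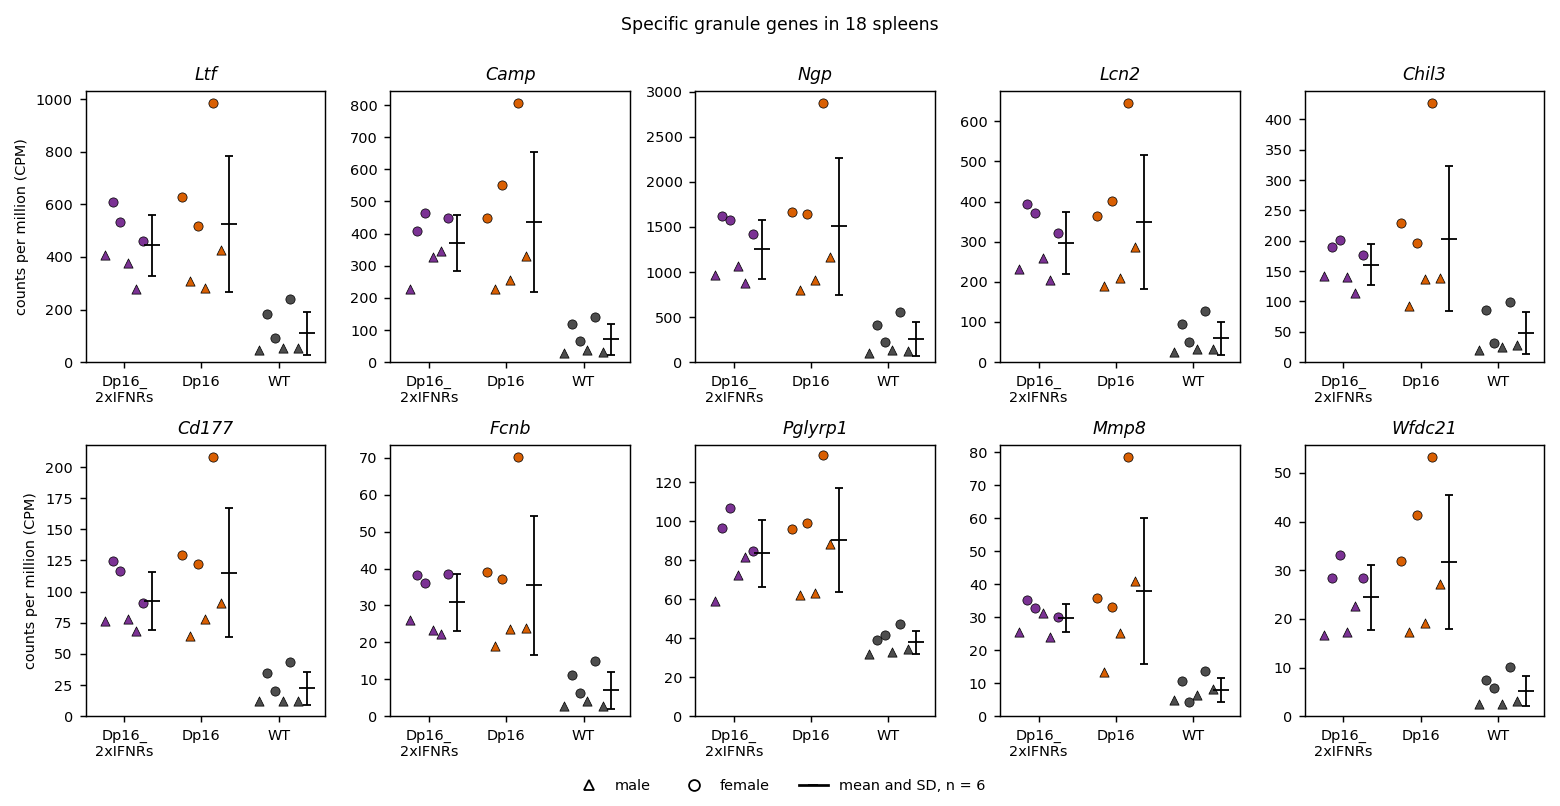
CPM of each specific granule gene in the 18 spleens (vertical axes, linear from 0), with Dp16_2xIFNRs left, Dp16 in the middle and WT right; triangles are males, circles females, and bars the mean and SD of 6 spleens. Dp16 replicate 5, a female, is the highest spleen in every panel, and WT overlaps Dp16 only for Chil3 and Mmp8.

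Counted over members, every Dp16 spleen was above every WT spleen for 8 of 10 genes, where 4.57% of all tested genes showed this and 8.38% the opposite, and every Dp16_2xIFNRs spleen was above every WT spleen for 10 of 10, where 4.49% of all did and 8.21% the opposite. Per length, the members held nearly 1 order in all 3 genotypes. In Dp16_2xIFNRs Ngp was followed by Camp at 489 ± 116 RPKM, Lcn2 at 325 ± 84.5, Ltf at 158 ± 41.7, Pglyrp1 at 121 ± 24.6, Chil3 at 104 ± 22.1, Wfdc21 at 56.2 ± 15.3, Cd177 at 34.1 ± 8.48, Fcnb at 23.4 ± 5.79 and Mmp8 at 12.3 ± 1.80 (SD, n = 6). Among neighbours in this order, the ranges of mean ± SD overlapped between Camp and Lcn2, Ltf and Pglyrp1, Pglyrp1 and Chil3, Wfdc21 and Cd177, and Cd177 and Fcnb. In Dp16 Pglyrp1 (130 ± 38.5 RPKM) and Chil3 (132 ± 77.6) did not differ beyond their spread. In WT Pglyrp1, at 54.7 ± 8.39 RPKM, was above Ltf at 39.5 ± 29.2, the opposite order to the other genotypes, though within the spread of Ltf.

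The comparison of Dp16_2xIFNRs with Dp16 asks what the receptor dosage contributes. None of the 10 specific granule genes was called (0 of 10, where 0.0215% of all genes were called lower and 0% higher), and all 10 adjusted p values were 1 in edgeR. DESeq2 called 0 of 10 as well, and 438 of all genes had an unadjusted p below 0.05 in edgeR. The members' log2 fold changes were all negative, with a median of -0.17 against 0.00 for all genes, from -0.32 ± 0.17 SE for Wfdc21 to -0.09 ± 0.11 for Pglyrp1. The groups overlapped for all 10 members, where 0.0751% of all genes had every Dp16_2xIFNRs spleen higher and 0.0429% every one lower, and all 6 Dp16_2xIFNRs spleens lay below the highest Dp16 spleen.

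These data bound the difference between the 2 genotypes only loosely. The fitted fold of Ltf was 0.90 with a 95% interval of 0.643 to 1.26, that of Wfdc21 was 0.804 (0.635 to 1.02) and that of Mmp8 was 0.823 (0.555 to 1.22). Pglyrp1 had the narrowest interval, 0.811 to 1.08 around 0.937. The sign was not stable. With a term for the library index in the descriptions Camp was at 0.05, and with a block on the code in the descriptions Mmp8 was at 0.34, neither called.

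**Figure D2:**
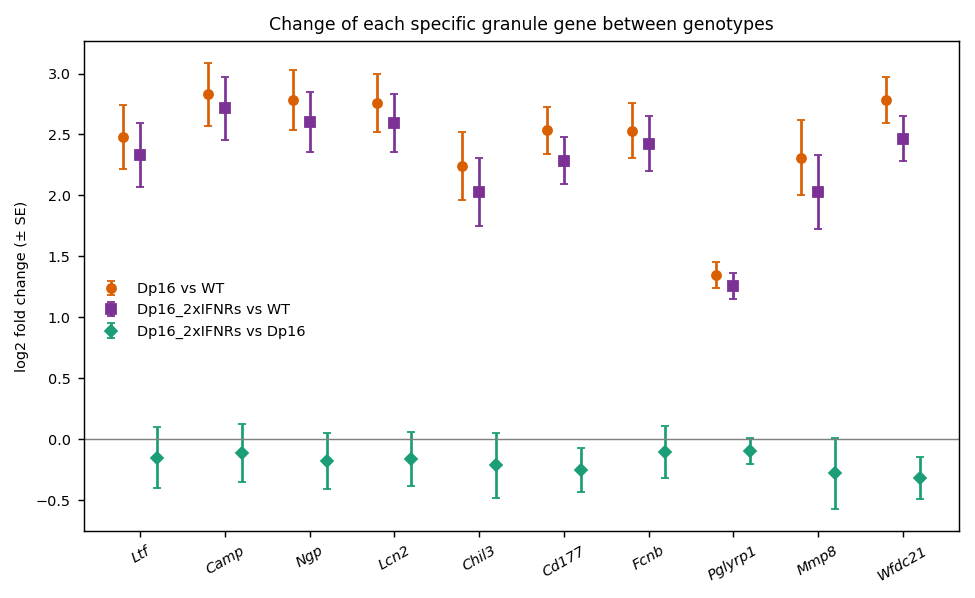
Log2 fold change of each specific granule gene (vertical axis, points with SE bars) in each genotype with the extra segment against WT, and in Dp16_2xIFNRs vs Dp16. Both comparisons with WT lie between 1.26 and 2.83, Pglyrp1 is lowest in both, and the values of Dp16_2xIFNRs vs Dp16 lie between -0.32 and -0.09.

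The members rose and fell together from spleen to spleen. Dp16 replicate 5 was highest of its genotype for 10 of 10 members and Dp16 replicate 2 lowest for 9. WT replicate 5 was highest of its genotype for 10 of 10 and WT replicate 1 lowest for 6. In Dp16_2xIFNRs replicate 2 was highest for 5 members and replicate 5 lowest for 7. As highest over lowest value, the range there was narrower than in the other genotypes, except for Pglyrp1 against WT (1.81 against 1.46 times). The highest Ltf value was 2.18 times the lowest in Dp16_2xIFNRs and 3.49 times in Dp16, against 5.28 times in WT. Leaving out Dp16 replicate 5 lowered the log2 fold change in Dp16 against WT to 2.06 for Chil3 and Mmp8, 2.39 for Fcnb and 2.42 for Cd177, and all 10 members were called without it.

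Over the 45 pairs of members, the median Pearson correlation of log2 CPM within a genotype was 0.82 in Dp16_2xIFNRs, 0.97 in Dp16 and 0.97 in WT, over 6 libraries each. The lowest pair was Ltf and Camp in Dp16_2xIFNRs (0.45), Ltf and Mmp8 in Dp16 (0.85), and Pglyrp1 and Mmp8 in WT (0.52). These points share their library and its depth, and sex means were not removed from them. For 9 members, all but Mmp8, every female was above every male within each genotype. The pair correlations therefore include the shared sex difference, and its part in them was not tested. Values for pairs of other genes are not given, so these correlations have no baseline here. After genotype and sex means were removed, each member's correlation with the mean of the members over 18 libraries ran from 0.50 for Pglyrp1 and 0.83 for Mmp8 to 0.97 for Lcn2 and Ngp. That mean includes the member itself, which raises the members' values. Other genes are not part of the mean, so their values are not on the same footing. Among other genes the 5 most like the members by this measure were S100a8 (0.95) and S100a9 (0.91), the subunits of calprotectin, Itgb2l (0.94), an integrin subunit gene inside the triplicated segment, Prtn3 (0.93), the azurophil protease proteinase 3, and Ms4a3 (0.92), a marker of granulocyte precursors. In Dp16 and Dp16_2xIFNRs against WT their log2 fold changes were 2.48 and 2.33 for S100a8, 2.45 and 2.34 for S100a9, 2.72 and 2.59 for Itgb2l, 2.96 and 2.78 for Prtn3, and 3.06 and 2.79 for Ms4a3.

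Genes of the azurophil granule, made just before the specific granule, were also higher. Of 12 listed genes 11 were tested, and 8 were called higher and 0 lower in both comparisons, with a median log2 fold change of 2.40 in Dp16 and 2.07 in Dp16_2xIFNRs. Mpo, myeloperoxidase, was at 2.69 in Dp16 and 2.39 in Dp16_2xIFNRs, and Elane, neutrophil elastase, at 2.67 and 2.53. The proteoglycan gene Srgn (0.24 and 0.21) and the protease-activating cathepsin gene Ctsc (0.04 and 0.07), both also active in other blood cells, were not called.

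Genes of gelatinase granules and later granule membranes had a smaller median, 0.24 in both comparisons, with 5 of 11 tested genes higher and 0 lower. The 4 with the most counts were not called in either, with log2 fold changes in Dp16 and Dp16_2xIFNRs of 0.24 and 0.24 for the lysozyme gene Lyz2, 0.09 and 0.06 for the integrin gene Itgb2, 0.16 and 0.22 for Cyba and 0.08 and -0.02 for Cybb, subunits of the phagocyte oxidase. Hp, haptoglobin, was at 1.70 and 1.46 (adjusted p = 1.37e-05 and 4.29e-05). The other genes called higher in both were Olfm4 (1.67 and 1.71), Mmp9 (1.24 and 1.08), Mmp25 (1.24 and 1.08) and Itgam (0.92 and 0.85). All 5 were chosen here after their values were seen. The median of this list depends on which genes it holds.

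Mature neutrophil genes were mixed. Of 14 tested genes 8 were higher and 1 lower in Dp16 (median 0.61), and 9 were higher and 1 lower in Dp16_2xIFNRs (median 0.71). S100a8 and S100a9, with the values given above, were among those called higher in both. Slpi, a protease inhibitor gene, was called in Dp16_2xIFNRs (0.71, adjusted p = 0.0221) and not in Dp16 (0.38, adjusted p = 0.232), and the difference between these genotypes, 0.34, was not called. The receptor genes Cxcr2 (-0.19 and -0.24) and, chosen after its values were seen, Csf3r (-0.01 and 0.14) were not called. Other genes of this list were called higher in both. They were Retnlg (1.85 and 1.71), Stfa2l1 (1.73 and 1.86), Trem1 (0.70 and 0.83), Fpr1 (0.65 and 0.92), Clec4d (0.64 and 0.72) and Ccrl2 (0.58 and 0.65), also chosen after their values were seen.

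**Figure D3:**
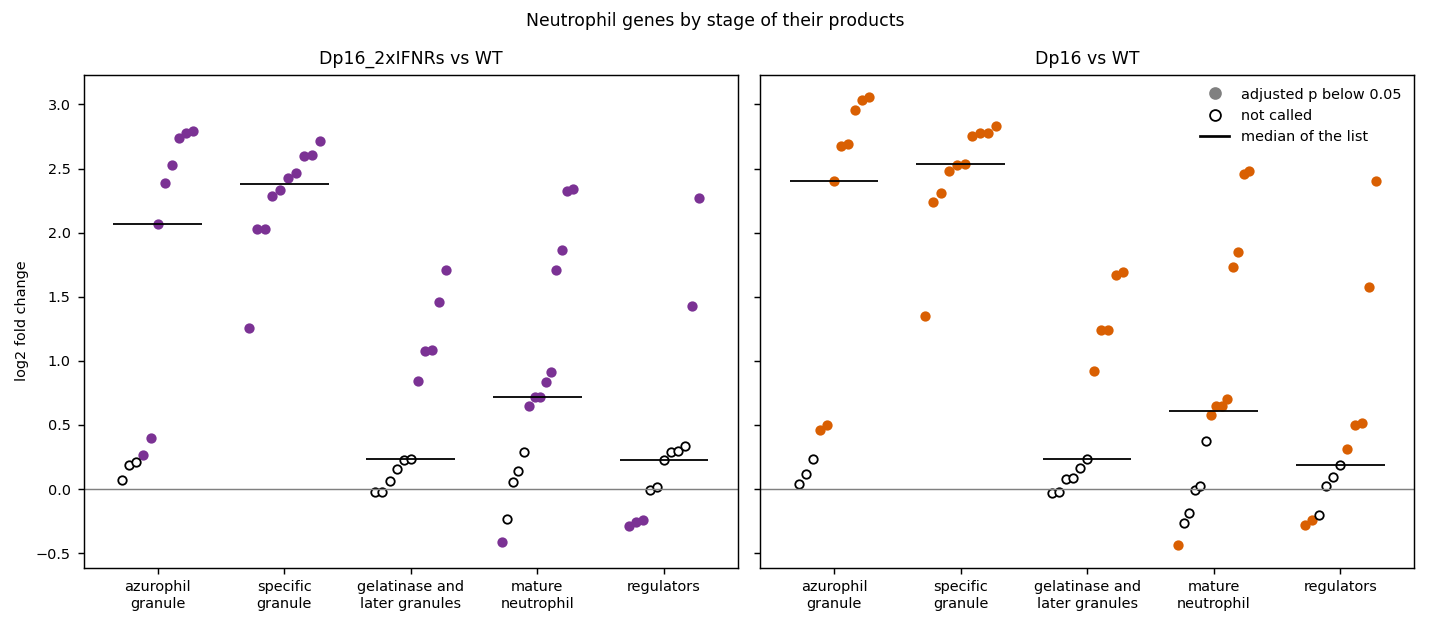
Log2 fold change against WT (vertical axis) of each tested gene of 5 neutrophil lists (horizontal axis), in Dp16_2xIFNRs left and Dp16 right; filled points were called at an adjusted p below 0.05, open points were not, and lines are list medians. The specific granule genes lie between 1.26 and 2.83 with every point filled, and the azurophil list has points both near 0 and above 2. The later lists have medians below 1, with some points above 1 in each.

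The level of Ltf was set against that of an early and a late gene within each spleen, as the log2 ratio of CPM with 0.1 added. Against Elane the ratio was 1.66 ± 0.14 in Dp16_2xIFNRs, 1.66 ± 0.20 in Dp16 and 1.85 ± 0.26 in WT (SD, n = 6 each). The groups overlapped. The difference was -0.19 in Dp16 against WT (two-sided exact permutation p = 0.175, adjusted p = 0.263), -0.19 in Dp16_2xIFNRs against WT (exact permutation p = 0.136, adjusted p = 0.263) and 0.00 in Dp16_2xIFNRs against Dp16 (exact permutation p = 1).

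Against Cxcr2, the chemokine receptor of mature neutrophils, the log2 ratio of Ltf was 4.39 ± 0.43 in Dp16_2xIFNRs and 4.51 ± 0.50 in Dp16, against 1.75 ± 1.08 in WT. All spleens with the extra segment, from 3.81 to 5.04, were above all WT spleens, from 0.83 to 3.15. Ltf alone also stood apart from WT in both genotypes, and Cxcr2 was not called in either. This separation and the test of it therefore restate the rise of Ltf and are no separate evidence. The difference in log2 ratio was 2.76, a 6.78-fold ratio, in Dp16 against WT and 2.64, a 6.24-fold ratio, in Dp16_2xIFNRs against WT (exact permutation p = 0.00216 and adjusted p = 0.00649 for both, the smallest p that the permutations can give). Between Dp16_2xIFNRs and Dp16 it was -0.12 (exact permutation p = 0.658, adjusted p = 0.79). The 6 tests were adjusted together, and over the alternatives the adjusted p of the Cxcr2 ratio against WT ran from 0.00649 to 0.0476. Cxcr2 itself averaged 20.8 ± 4.61 CPM in Dp16_2xIFNRs and 21.6 ± 5.86 CPM in Dp16, against 26.5 ± 2.36 CPM in WT. It is 1 of 14 genes of its list, of which 8 were higher in Dp16 and 9 in Dp16_2xIFNRs, with 1 lower in each. S100a8 (2.48 and 2.33) and S100a9 (2.45 and 2.34) rose about as much as Ltf (2.48 and 2.33). Ratios of Ltf to those genes were not tested, so the Cxcr2 ratio does not stand for mature neutrophil genes as a set.

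**Figure D4:**
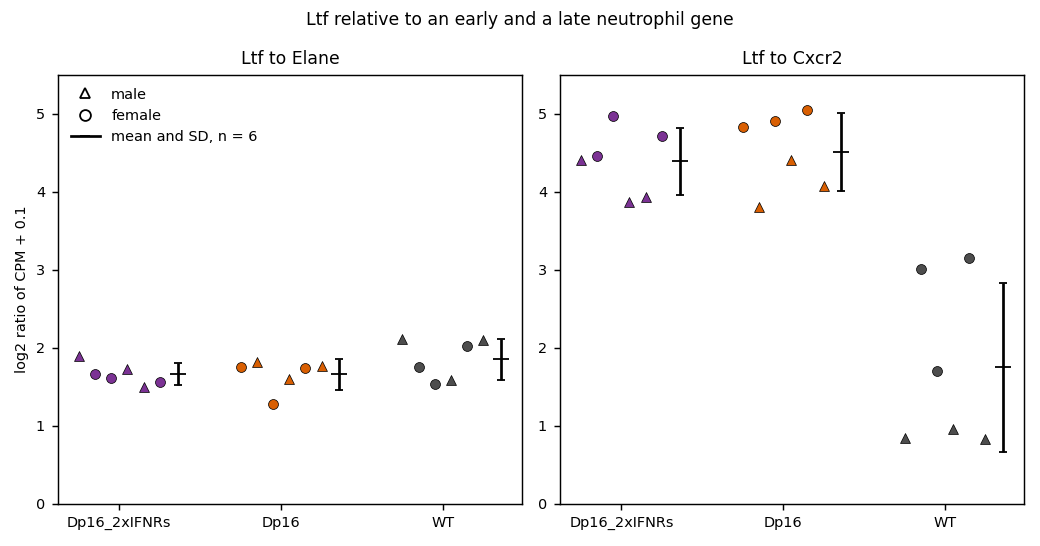
Log2 ratio of Ltf to Elane (left) and of Ltf to Cxcr2 (right) in each spleen (vertical axes, CPM with 0.1 added), by genotype; triangles are males, circles females, and bars the mean and SD of 6 spleens. The Elane ratio lies between 1.27 and 2.12 in all spleens, and the Cxcr2 ratio of WT spleens, at most 3.15, is below that of all others.

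Regulators of granule genes moved less and in both directions, with 5 of 11 tested genes higher and 2 lower in Dp16 and 2 higher and 3 lower in Dp16_2xIFNRs. The 4 with the most counts were Irf8 (-0.24 in Dp16 and -0.25 in Dp16_2xIFNRs, both called), which favours monocytes over granulocytes, Stat3 (-0.28 and -0.29, both called), Spi1, which encodes PU.1 (0.10 and 0.02, not called), and Cux1 (-0.20, not called, and -0.24, adjusted p = 0.029). These factors are also active in lymphocytes and macrophages. Cebpe, whose values were seen before it was chosen, had 13.2 ± 2.40 CPM in Dp16_2xIFNRs and 15.9 ± 9.86 CPM in Dp16, against 3.23 ± 1.56 CPM in WT. Its log2 fold change was 2.40 in Dp16 (adjusted p = 2.09e-06) and 2.27 in Dp16_2xIFNRs (adjusted p = 4.48e-06). Csf3, which encodes the granulocyte growth factor G-CSF, was too low to test.

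Partners that the members' products bind had 4 of 12 tested genes higher and 3 lower in both comparisons. Pecam1 (-0.38 and -0.37) and the scavenger receptor gene Lrp1 (-0.40 and -0.36) fell in Dp16 and Dp16_2xIFNRs, Itgb2 and the collagenase inhibitor gene Timp2 (-0.16 and -0.23) were not called, and Prtn3, a partner of CD177 in human cells, rose. Fpr2, a receptor for cathelicidin peptides, chosen after its values were seen, rose by 1.67 and 1.61.

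Relatives of the members from the same protein families did not all follow them. Of 11 listed, 7 were tested, with 3 higher and 1 lower in both comparisons. The transferrin gene Trf, a relative of Ltf, was at -0.10 in Dp16 and -0.06 in Dp16_2xIFNRs, and Fcna, the macrophage relative of Fcnb, at -0.07 and -0.0037, none called. Mmp9, the gelatinase of later granules, rose by 1.24 and 1.08, and Pglyrp2 fell by 0.34 and 0.31. Chil1, a relative of Chil3 chosen after its values were seen, was at 2.30 and 2.19 (adjusted p = 2.67e-06 and 5.17e-06).

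Other genes in the chromosome 9 stretch of Camp, Ngp and Ltf were called in both directions, and an effect of position was not tested. From the start of Camp to the end of Ltf, 1.20 Mb, 25 other genes were tested. In Dp16, 2 were called higher and 7 lower, with a median log2 fold change of 0.02 (from -0.53 to 0.89), where 16.6% of all tested genes were called higher and 13.2% lower. In Dp16_2xIFNRs, 2 were called higher and 6 lower, with a median of -0.14 (from -2.31 to 1.29), where 17.3% were called higher and 14.2% lower.

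Markers of other cell types moved in the same spleens. In Dp16 and Dp16_2xIFNRs against WT, 12 of 12 erythroid and 12 of 12 cell division genes were higher, 6 of 7 basophil and mast cell genes were higher, and 8 of 8 B cell genes were lower. The summed level of the erythroid list ran from 15106 to 30062 CPM in Dp16_2xIFNRs and 14744 to 27341 CPM in Dp16, against 4067 to 14353 CPM in WT. That of the B cell list ran from 2405 to 3087 CPM in Dp16_2xIFNRs and 2305 to 2828 CPM in Dp16, against 3530 to 5328 CPM in WT. The cell division list summed to between 2051 and 3299 CPM in Dp16_2xIFNRs and between 2146 and 3073 CPM in Dp16, against 640.0 to 2189 CPM in WT. Red pulp macrophage genes, of a cell type that can also make Chil3, overlapped between genotypes, at 2599 to 3062 CPM in Dp16_2xIFNRs and 2407 to 3725 CPM in Dp16, against 2420 to 3737 CPM in WT. No gene of these 4 lists was at 0 in any library. Monocyte genes had 2 of 8 higher and 1 lower in Dp16 and 2 higher in Dp16_2xIFNRs, red pulp macrophage genes 3 of 9 higher in both, and eosinophil genes 5 of 8 higher and 1 lower in Dp16 and 4 and 1 in Dp16_2xIFNRs. T cell genes had 2 of 8 lower, NK cell genes 3 of 6 and endothelial genes 4 of 6, in both comparisons, and the part of any of these cells in the members' rise was not tested. Of 7 pancreatic acinar genes up to 6 were at 0 in a library, and the 1 tested, Cela1, chosen after its values were seen, was at 0.57 in Dp16 and 0.66 in Dp16_2xIFNRs, both called.

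Across the genotypes most specific granule genes were lower in males than in females. This comparison was chosen after the values were seen. With the 3 genotypes pooled in the fit, 8 of 10 members were called lower in males, where 0.204% of all tested genes were called lower and 0.0537% higher, that is 38 and 10 genes. Ltf averaged 248 CPM in 9 males and 472 CPM in 9 females, a log2 fold change of -1.13 ± 0.21 SE (adjusted p = 0.0304). The other called members were Camp (-1.12, adjusted p = 0.0257), Ngp (-1.17, adjusted p = 0.0165), Lcn2 (-1.09, adjusted p = 0.0215), Cd177 (-0.97, adjusted p = 0.00759), Fcnb (-1.15, adjusted p = 0.00707), Pglyrp1 (-0.47, adjusted p = 0.0179) and Wfdc21 (-1.03, adjusted p = 0.00135). Chil3 was at -1.09 (adjusted p = 0.0631) and Mmp8 at -0.57 (adjusted p = 0.506).

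For 9 of 10 members, all but Mmp8, every male was below every female within each of the 3 genotypes. Among all genes 3.79% showed this in Dp16_2xIFNRs, 5.22% in Dp16 and 7.37% in WT. These shares are per genotype, and the share of all genes that showed it in all 3 at once was not computed. Camp ran from 229 to 347 CPM in Dp16_2xIFNRs males and from 407 to 463 CPM in females, and from 229 to 329 CPM in Dp16 males and from 450 to 806 CPM in females. In WT it ran from 29.4 to 39.3 CPM in males and from 64.5 to 141 CPM in females. The call count was fragile. It fell to 2 with a block on the sample number and to 1, Wfdc21, without the 4 libraries rich in Gm42418, and ran from 3 (without Dp16 replicate 2 or 4) to 9 when each library was left out in turn. It was 4 without WT replicate 4 and 5 without WT replicate 6. Wfdc21 was called under all 28 alternatives, with a highest adjusted p of 0.0179, and the log2 fold change of Ltf ran from -1.20 to -1.01 under them.

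Other neutrophil lists gave 6 of 11 azurophil genes and 2 of 14 mature neutrophil genes, S100a8 and S100a9, lower in males, and 0 of 11 genes of gelatinase and later granules. Of the 38 genes lower in males, 8 were members, 5 lay on X or Y and 25 were other autosomal genes. Erythroid (0 of 12), cell division (0 of 12) and B cell genes (0 of 8) were not called, with medians of -0.46, -0.40 and 0.15. Among the lists of other cell types the lowest median was that of basophil and mast cell genes, -0.64, with 0 of 7 called. The part of other cell types in the sex difference was not tested.

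The difference between genotypes was present in both sexes. Within males all 10 members were called higher in Dp16 (median log2 fold change 2.89, where 10.7% of all genes were called higher) and in Dp16_2xIFNRs (2.94, where 12.3% were). Within females all 10 were called in Dp16 (2.39, where 5.29% were) and in Dp16_2xIFNRs (1.88, where 3.63% were). The test of the sex by genotype interaction in edgeR called 0 of 18634 genes. The members' adjusted p values for it were all 1, and the smallest unadjusted p was 0.00489, for Fcnb in Dp16_2xIFNRs against WT. The sex difference within a genotype had a median of -0.57 in Dp16_2xIFNRs and -1.03 in Dp16, with 0 members called in each, where 0.0107% of all genes were called lower in either genotype, against -1.60 in WT with 7 called lower, where 0.113% of all genes were, but these differences between genotypes did not pass the interaction test.

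**Figure D5:**
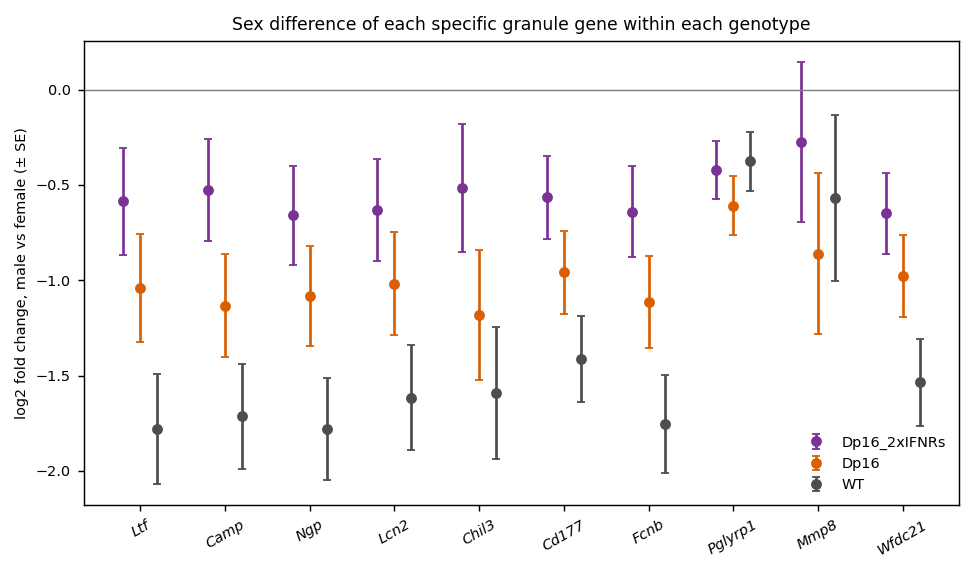
Log2 fold change of males against females (vertical axis, points with SE bars) for each specific granule gene within Dp16_2xIFNRs, Dp16 and WT, 3 males and 3 females each. All points lie below 0, from -1.78 for Ltf and Ngp in WT to -0.27 for Mmp8 in Dp16_2xIFNRs.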

How the data were processed

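The deposited counts are the authors' raw read counts per gene, and RPKM, also deposited by the authors, divides these by gene length and library total. Per the labels' protocols, strand-specific poly(A) libraries were sequenced on an Illumina instrument. The build GRCm38 and the tools HTSeq 0.6.1, HISAT2 2.1.0, FastQC 0.11.5, bcl2fastq and SAMtools 1.5 are listed, without roles, in the submitters' processing notes. Whether counting used strand is not given in the sources used here, and an unstranded count would merge a gene with its antisense partner. Over 11538 genes each RPKM value equalled the count over library total and length within 6.7e-16.

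Members and lists were chosen with earlier results of these data known. Counts were filtered by filterByExpr, scaled by TMM and fitted with edgeR 4.0.16 (quasi-likelihood, robust, R 4.3.3) over 18 libraries with genotype and sex as terms. P-values were adjusted by Benjamini-Hochberg over 18634 genes and measure the spread between these samples. Intervals (95%) are 1.96 SE either side. The script was tested on simulated data. Named genes were all members, the 4 receptors, the 4 tested genes with the highest mean CPM of each list and the 5 genes most like the members. For lists of other cell types counts alone are given. Genes outside this rule are marked. One gene that the rule names is not reported here. Positions come from GENCODE vM21 on GRCm38, which matched 55144 of 55385 identifiers (99.6%).

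Alternatives were RLE and upper quartile scaling, DESeq2 1.42.0, limma 3.58.1 (voom with quality weights, or trend on log2 RPKM with 0.1 added), 2 filters, other terms and blocks, fits on 12 libraries, and omission of libraries. Libraries of a genotype differed beyond sampling noise (in 45 pairs, chi-square was 35.1 to 200 times its degrees of freedom), so none was counted as a copy. Xist and Ddx3y matched the sex label in 18 of 18 libraries.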

Additional observations from a re-analysis of the deposited data

How the results depend on the processing

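In both comparisons with WT, 10 of 10 members were called higher under all 25 alternatives, the replicate block included, and no member moved by over 1.5 times. The least certain call was Mmp8 in Dp16 with the description code block (1.89, adjusted p = 0.0339). In Dp16_2xIFNRs against Dp16, 0 of 10 were called under all 25, but signs turned. With the description code block Camp was at 0.0346, Ngp at 0.0377, Lcn2 at 0.0546, Chil3 at 0.0366, Fcnb at 0.11, Pglyrp1 at 0.0097 and Mmp8 at 0.34, and with the library index term Camp was at 0.0522, Pglyrp1 at 0.0072 and Mmp8 at 0.0171. Fcnb ran from -0.175 to 0.0191 over single omissions, the highest without Dp16 replicate 5. The Ltf to Elane difference between Dp16_2xIFNRs and Dp16 was -0.0217 without the libraries rich in Gm42418 and ran from -0.0766 to 0.0332 over single omissions, never called. The other ratios kept their direction and side of the threshold. The cause of these changes was not tested.

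The 8 members called lower in males became 2 with the replicate block, 1 without the libraries rich in Gm42418, and 3 to 9 over single omissions, and the description code block absorbs sex and gave no value. Libraries that share a sample number are not known to be paired: after removal of group means their mean correlation was 0.02 over 18 pairs, against -0.004 for other numbers. For libraries of different genotypes that share a description code, whose meaning is not stated, the mean correlation was 0.05 over 7 pairs. The replicate block called 3008 genes higher and 2526 lower in Dp16 against WT, the description code block 1692 and 835, upper quartile scaling 2558 and 3333, and the edgeR fit 3091 and 2462. In Dp16_2xIFNRs against WT these were 3090 and 2706, 2663 and 1917, 2677 and 3451, and 3217 and 2643. Over all genes, males against females gave 10 higher and 38 lower, against 8 and 8 with the replicate block, 5 and 5 without the libraries rich in Gm42418 and 39 and 103 by DESeq2. With 6 animals per genotype, the data are compatible with any difference between Dp16_2xIFNRs and Dp16 inside the intervals given.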
